A study of Mus musculus with 3 samples.

Results

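The regions described here are short runs of neighbouring array probes that ranked low for both cytosine modifications in wild-type (WT) mouse embryonic stem cells. A run is a set of probes with consecutive probe numbers and a value on all 3 arrays, and runs of 3 to 7 probes were considered. For each run the median over its probes was taken on each array and turned into a percentile among the runs. The 1406 runs below percentile 20 on every array, 11% of 12797, are called the low runs, and the remaining 11391 are called the other runs. The low runs were thus chosen by their measured values on all 3 arrays, and their low level there describes that choice and is not a finding.

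Of the 3 arrays, the 5mC MBD array held DNA captured with an MBD reagent, which binds DNA that carries 5-methylcytosine (5mC). The 5hmC ESC array and the 5hmC ESC (IVT) array held DNA immunoprecipitated for 5-hydroxymethylcytosine (5hmC). The word IVT is not explained in the labels, and that array is called the IVT array. Embryonic stem cells are the pluripotent cells of the early embryo kept in culture. The enriched DNA carried Cy5 and genomic DNA of these wild-type cells carried Cy3 on every array. Each group held 1 array, the labels give no separate cultures and no knockout or treatment, and no difference could be tested. The labelled cell type could not be checked here, because arrays of DNA modification carry no expression of marker genes.

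Cytosines followed by guanine are methylated by the DNA methyltransferases, and the TET enzymes oxidise 5mC to 5hmC. Embryonic stem cells express Tet1 and Tet2 and are known for a high content of 5hmC. Clusters of such cytosines, the CpG islands, are largely free of 5mC at most promoters, and DNA without 5mC offers the TET enzymes no substrate. Which of the low runs lie at promoters or in islands was not analysed here, since the table names probes by number only. Positions, genes and probe sequences were not used.

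Values are given as deposited. They have the form of log ratios between the channels, but their log base and centring are unknown, so no fold enrichment is printed. That a lower value stands for less modified DNA rests only on which channel the labels name first. With the opposite sign the low runs would be the highest ones. Levels are not compared between arrays, since each array has its own scale and centring. Ranges in parentheses after a share are 95% Wilson intervals. They cover counting error over runs or probes, which are not independent of each other, and say nothing of the spread between cultures.

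The run median on the 5mC MBD array was between -2.32 and -0.45 in the low runs, with a median of -1.005, against a median of 0.29 in the other runs. On the 5hmC ESC array the low runs lay between -2.41 and -1.12, with a median of -1.71, against 0.19 in the other runs. On the IVT array they lay between -5.07 and -1.20, with a median of -2.61, against -0.37 in the other runs. The gap between the medians of low and other runs was -1.29 on the 5mC MBD array, -1.90 on the 5hmC ESC array and -2.23 on the IVT array. In units of the SD over the other runs these gaps were -2.0, -2.0 and -2.48 (5mC MBD, 5hmC ESC and IVT array).

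**Figure D1:**
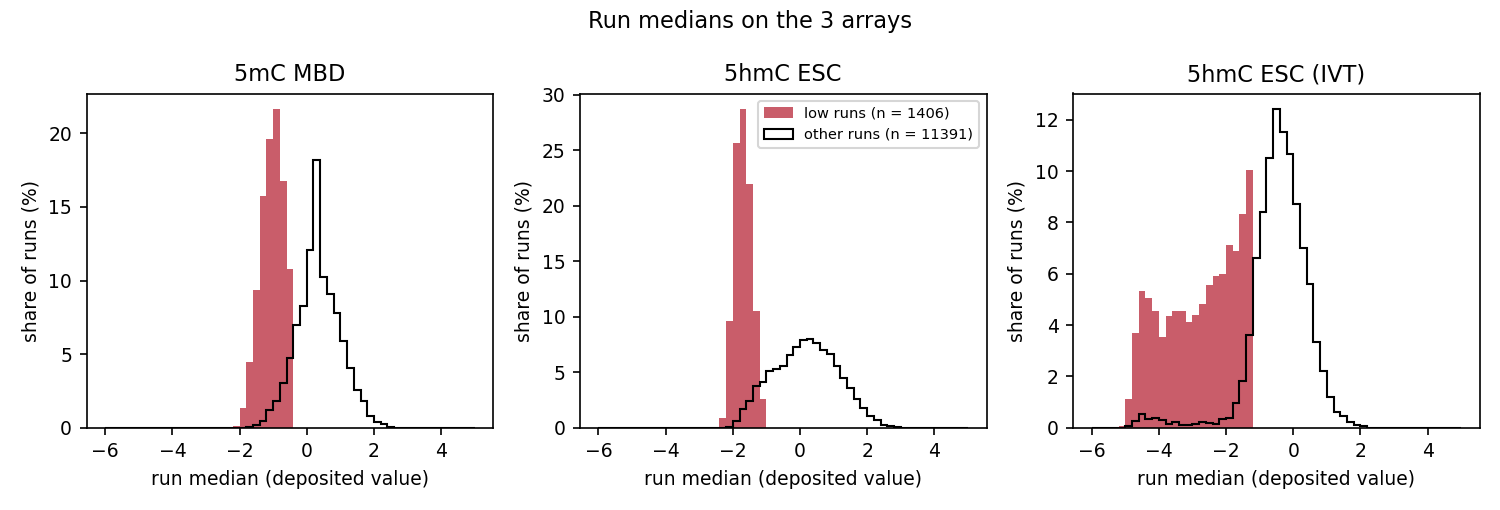
Run medians on each array, with the deposited value on the x axis and the share of runs in percent on the y axis. Filled bars stand for the 1406 low runs and the outline for the 11391 other runs. The low runs form a narrow group on the 5hmC ESC array and spread between -5.07 and -1.20 on the IVT array.

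The low runs lay at different depths below the threshold. On all 3 arrays 1 run lay below percentile 1 and 59 lay below percentile 5, or 0.461% of all runs. Below percentile 10 lay 512, or 4.001% of all runs, and below percentile 15 lay 1017, or 7.95%. How many runs would reach these depths if the arrays were unrelated was not tested. The deepest was the run of 4 probes that starts at A_68_P22051105. Its 4 probes had 5mC values of -1.61, -1.54, -0.85 and -2.51. Their 5hmC values on the 5hmC ESC array were -1.94, -2.11, -1.498 and -2.13. Their IVT values were -4.11, -4.77, -5.01 and -4.63. Each of the 12 values lay below the level that marks the lowest 20% of probes on its array, which was -0.64 for the 5mC MBD array, -1.14 for the 5hmC ESC array and -1.48 for the IVT array. The next deepest, the 3 probes from A_68_P26813122, had 5mC values of -1.48, -1.27 and -2.39, with 5hmC values of -2.04, -1.79 and -2.10 and IVT values of -4.43, -3.85 and -4.52. At the other end, the 2 low runs nearest to the threshold had a highest percentile of 19.98 and 19.99, and the 2 nearest runs outside it had 20.0008 and 20.0047. These 4 runs are thus alike in rank, and the edge of the set is a convention.

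Each array was next judged on runs that the other arrays had picked. Of 1858 runs below percentile 20 on both 5hmC arrays, 75.7% (73.7 to 77.6) were also below percentile 20 on the 5mC MBD array, which that choice had not used. The share among all runs was 20%. The 5mC percentile of these 1858 runs had a median of 10.1. The remaining 452 runs had a median 5mC percentile of 31.2, with 377 between percentiles 20 and 50 for 5mC and 7 above percentile 80. Runs low on both 5hmC arrays and high for 5mC were thus few.

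The converse choice gave 1864 runs low on the 5mC MBD and 5hmC ESC arrays, of which 75.4% (73.4 to 77.3) were low on the IVT array. The background was again 20%. Of the 458 runs that the IVT array did not share, 117 lay above percentile 50 on it. Runs low on the 5mC MBD and IVT arrays numbered 1547, and 90.9% (89.3 to 92.2) of them were low on the 5hmC ESC array, against a background of 20%. Only 7 of these runs lay above percentile 50 there. All 3 values of a run share their probes and a denominator of genomic DNA from these cells. How far this adds to the overlap was not tested.

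The lowest runs of each array were members to unequal degrees. Of the 639 runs below percentile 5 on the 5mC MBD array 81.4% were low runs, and of those on the 5hmC ESC array 85.6%. On the IVT array 62.1% of the 639 lowest runs were low runs. The share among all runs was 11%, but runs below percentile 5 on an array already meet the rule on that array. That share is therefore no fair background for them. Below percentile 20 lay 2559 runs on the 5mC MBD array, 2559 on the 5hmC ESC array and 2558 on the IVT array. On each array 1406 of these were low runs. Only the inequality between arrays is described. Within the low runs the 5mC MBD array gave the lowest percentile of the 3 in 522 runs, the 5hmC ESC array in 487 and the IVT array in 397.

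Probes of a low run were then compared with each other. On the 5hmC ESC array the probes of a low run differed little, with a median SD within a run of 0.25 against 0.55 in the other runs. Within-run SDs on the IVT array had a median of 0.38 in the low runs and 0.76 in the other runs. On the 5mC MBD array the probes of a low run were as scattered as elsewhere, with a median SD of 0.72 in the low runs and 0.74 in the other runs. The order of the 5hmC arrays depends on scale: after quantile normalization the median SD within the low runs was 0.24 on the IVT array and 0.48 on the 5hmC ESC array, and 0.90 on the 5mC MBD array. The larger scatter of 5mC held in both. These SDs come from the values that chose the low runs, and how far that choice lowers them was not tested.

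The scatter of 5mC was such that a low run was seldom low at every probe. All probes lay in the lowest 20% of their array in 282 low runs for 5mC, or 20.1%, against 2.85% of all runs. For the 5hmC ESC array this was so in 931 low runs, or 66.2%, against 10.2% of all runs. For the IVT array it was so in 948 low runs, or 67.4%, against 10.5% of all runs. Since a run had to have low medians, these shares had to exceed the background, and only their inequality between arrays is described. Every probe was low on every array in 197 low runs, or 14.01%, against 1.54% of all runs. A probe above the array's median for 5mC occurred in 553 of the low runs, or 39.3%, against 10246 of the other runs, or 89.9%. Most of these, 492 runs, had 1 such probe, 60 runs had 2 and 1 run had 3.

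A measure free of the choice was obtained by leaving out each probe in turn and ranking the run by its other probes. The left-out probes of runs that were low on all 3 arrays by their other probes numbered 5789 of 55025. Of these left-out probes 49.8% were in the lowest 20% on all 3 arrays, against 8.06% of all left-out probes. For the arrays taken singly, 60.2% of them were low on the 5mC MBD array, 85.0% on the 5hmC ESC array and 81.0% on the IVT array, each against 20% of all left-out probes. A probe whose neighbours were low on every array was thus more often low itself on the 5hmC arrays than on the 5mC MBD array.

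Left-out probes at the ends of a run were less often low than inner ones. Runs of all sizes were pooled here, and ends make up a larger part of short runs. How far run size adds to the difference was not tested. For 5mC 54.4% of 2792 end probes were low and 65.6% of 2997 inner probes. On the IVT array 78.5% of end probes and 83.4% of inner probes were low, and on the 5hmC ESC array 82.8% of end probes and 87.1% of inner probes. Among all left-out probes the shares at ends and inside differed by less, with 19.7% and 20.2% for 5mC, 20.5% and 19.6% on the IVT array and 21.3% and 18.8% on the 5hmC ESC array.

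On the 5mC MBD and IVT arrays this was also seen as a difference within runs, for the 948 low runs of at least 4 probes. The mean of the end probes exceeded that of the inner probes by a median of 0.18 for 5mC (95% interval of the median over runs 0.11 to 0.25) and by 0.18 on the IVT array (0.15 to 0.21). On the 5hmC ESC array the median difference was 0.014 (-0.002 to 0.038). In the 7439 other runs of that size it was -0.03 for 5mC, 0.02 on the IVT array and -0.11 on the 5hmC ESC array. The ends were the higher part in 560 low runs for 5mC, or 59.1%, against 49.5% of all runs of that size. For the IVT array this was so in 647 low runs, or 68.2%, against 53.2%, and on the 5hmC ESC array in 502, or 53.0%, against 42.5%. The median difference for 5mC is small beside the SD of 0.72 between the 5mC probes of a low run. These differences use the values that chose the low runs and are given as a description.

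The low runs differed among themselves chiefly on the IVT array. The SD between the medians of low runs was 0.34 on the 5mC MBD array, 0.25 on the 5hmC ESC array and 1.10 on the IVT array. After quantile normalization these SDs were 0.48, 0.48 and 0.64 (5mC MBD, 5hmC ESC and IVT array). The IVT array kept the largest of the SDs, by a smaller margin. In the other runs the SDs of the deposited values were 0.65, 0.95 and 0.90 in the same order of arrays. The low runs were cut by these same medians, and how far the cut sets their spread was not tested. The medians on the IVT array were most frequent next to the threshold, with 159 runs between -1.5 and -1.25. Toward lower values the counts were uneven, with 98 runs between -2.75 and -2.5, 70 between -3.25 and -3, 87 between -3.5 and -3.25, 62 between -4 and -3.75 and 94 between -4.5 and -4.25.

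The depth on the IVT array was shared by the probes of a run. The first and the last probe of a low run correlated at r = 0.715 on the IVT array (rho 0.720), over 1406 runs. On the 5hmC ESC array r was 0.037 (rho 0.129), and on the 5mC MBD array it was -0.107 (rho -0.101). Low medians were required of every low run, and how far this restricted range lowers each correlation was not tested. In the other runs r was 0.339 on the IVT array, 0.494 on the 5hmC ESC array and 0.152 on the 5mC MBD array. The first and last probe share an array, a hybridisation and a stretch of probe numbers.

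**Figure D2:**
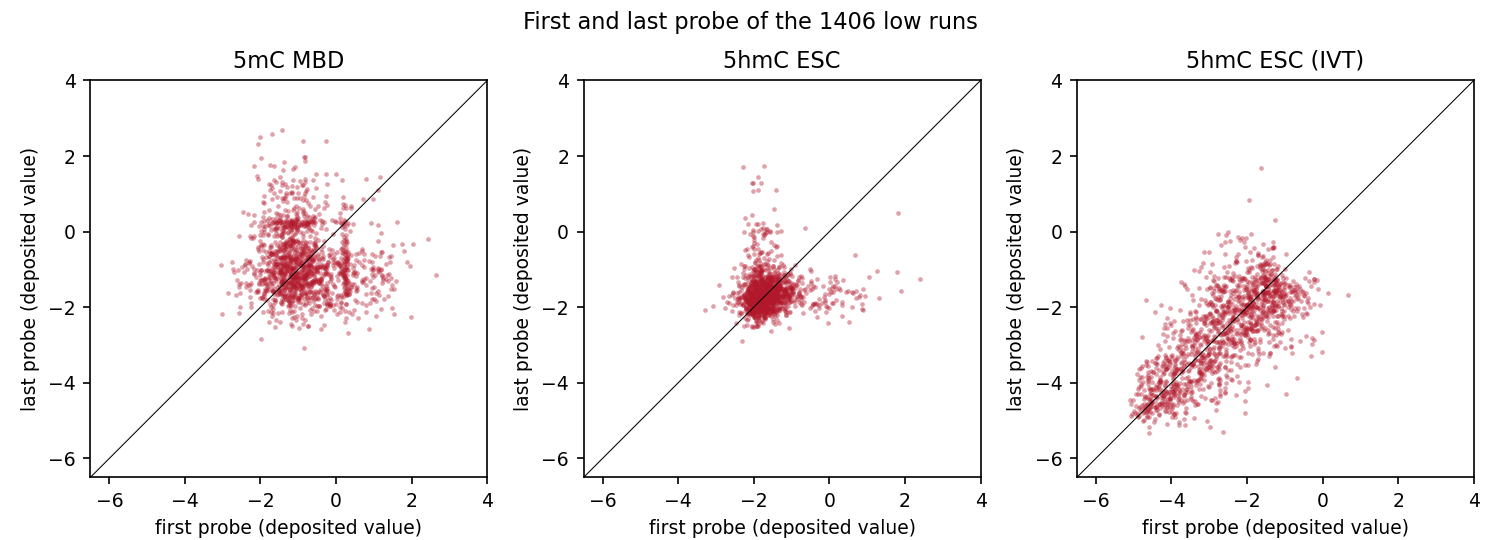
First probe (x axis) against last probe (y axis) of each of the 1406 low runs, in deposited values, with the line of equality. Points follow the line on the IVT array (r = 0.715) and form round or cross-shaped clouds on the 5hmC ESC array (r = 0.037) and the 5mC MBD array (r = -0.107), where the arms are runs with 1 high end probe.

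This depth had little linear correlation with the other arrays. Over the low runs the IVT median correlated at r = -0.045 with the 5mC median and at r = 0.117 with the 5hmC ESC median, whereas 5mC and 5hmC ESC correlated at r = 0.428. In the other runs these values were 0.317, 0.491 and 0.676 (IVT with 5mC, IVT with 5hmC ESC, and 5mC with 5hmC ESC). The arrays share a denominator of genomic DNA from these cells, and the low runs cover a restricted range. The low runs were also set in 4 equal groups by their IVT median. In the lowest of these groups, with IVT medians between -5.07 and -3.72, the 5mC median was -0.90 and the 5hmC ESC median was -1.65. The next group had a 5mC median of -1.14 and a 5hmC ESC median of -1.83. The third had -1.04 for 5mC and -1.76 for 5hmC ESC, and the highest had -0.93 for 5mC and -1.56 for 5hmC ESC. From the lowest group to the highest, both medians thus first fell and then rose. The runs deepest on the IVT array were therefore not the deepest on the 5mC MBD or the 5hmC ESC array.

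Probes outside the low runs were described next. To keep to values that the choice had not used, only probes in runs of 1, 2 or at least 8 probes were taken, since the rule ranked none of these. At a distance of 2 probe numbers from the end of a low run, past 1 missing number, 323 such probes had a median of -0.69 for 5mC, -1.54 on the 5hmC ESC array and -1.99 on the IVT array. The 4096 such probes at that distance from other runs had medians of 0.28, 0.26 and -0.39 (5mC, 5hmC ESC and IVT array). In the lowest 20% of probes lay 52.9% of the probes beside low runs for 5mC, 75.9% on the 5hmC ESC array and 65.6% on the IVT array. Beside other runs these shares were 13.3%, 9.89% and 11.7% in the same order. With the probes of runs of 3 to 7 probes included, some of which belong to other low runs, the medians beside low runs were -0.68, -1.53 and -1.99 over 464 probes. These 464 probes stand for 16.5% of the 2812 ends of low runs. The rest of the ends had no probe at that distance and are not described by these values.

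At a distance of 12 numbers 51 probes of runs of 1, 2 or at least 8 probes remained beside low runs, with medians of -0.39, -0.90 and -1.18, against 0.25, 0.06 and -0.32 for 415 probes beside other runs. Farther out the probes were few and the medians uneven. At 50 numbers they were 0.20, -1.06 and -1.19 over 27 probes beside low runs, against 0.23, -0.14 and -0.61 over 166 beside other runs. At 100 numbers they were 0.06, 0.53 and -0.59 over 23 probes beside low runs, against 0.27, 0.02 and -0.66 over 159 beside other runs.

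**Figure D3:**
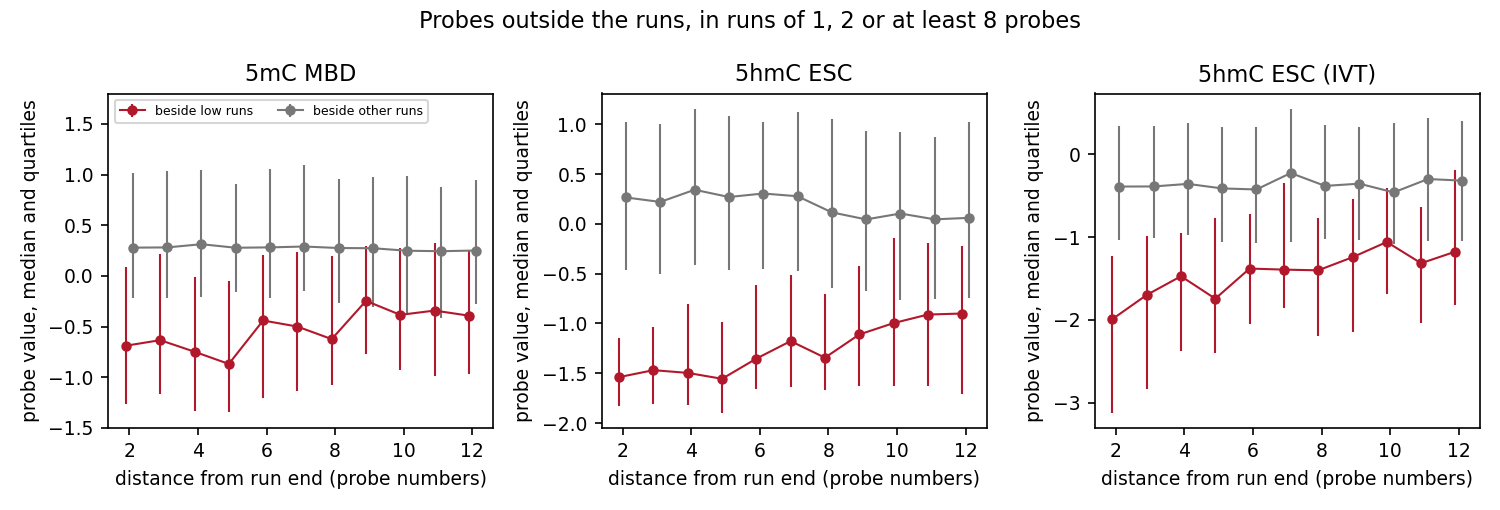
Values of probes in runs of 1, 2 or at least 8 probes by distance from the run end in probe numbers, as medians with quartiles, for each array. Red points stand for probes beside low runs and grey points for probes beside other runs. The red medians lie below the grey ones at every distance of 2 to 12 numbers, and on the IVT array they lie at -1.99 at distance 2 and -1.18 at distance 12.

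The next run of at least 3 probes showed how the low runs lay together. Next runs of 3 to 7 probes were ranked by the rule themselves. A next run was counted as low when its medians met the values that bound the low runs, whatever its number of probes, and pairs of low runs were counted from each side. Within 10 probe numbers 147 of 316 next runs were low, or 46.5% (41.1 to 52.0), against 166 of 4499 next to other runs, or 3.69% (3.18 to 4.28). Over all runs that share was 6.5%. At a distance of 2 numbers, 81 of 161 next runs of low runs were low, or 50.3%, against 3.08% next to other runs and 5.9% over all runs. At distances of 11 to 50 numbers the share was 29.2% (24.99 to 33.7) next to low runs and 16.1% (14.4 to 17.9) next to other runs, with 18.6% over all runs. Beyond 1000 numbers it was 8.72% (6.58 to 11.5) next to low runs and 9.44% (8.63 to 10.3) next to other runs. Even within 10 numbers, 169 next runs of low runs were not low by all 3 arrays.

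Depth on the IVT array was shared between neighbouring low runs as well. Over 66 pairs of low runs within 10 numbers of each other the IVT medians correlated at r = 0.402, and over 57 pairs 11 to 50 numbers apart at r = 0.444. Over 49 pairs 51 to 200 numbers apart r was 0.028, and over 69 pairs more than 200 numbers apart it was 0.193. For the 5hmC ESC array r was 0.096, 0.175, -0.0003 and 0.028 at these distances, and for 5mC it was -0.112, 0.173, 0.125 and -0.078. A run can stand in 2 of these pairs.

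Longer series of low runs were rare. With at most 50 numbers between runs, 1175 low runs had no low run as a direct neighbour, 96 stretches held 2, 10 held 3, 1 held 4 and 1 held 5. The longest stretch started at A_68_P25958331 and had 20 probes in 5 runs. Its run medians on the 5hmC ESC array were -1.84, -2.07, -1.90, -1.97 and -2.19, in the order of the probe numbers. On the IVT array they were -3.68, -2.10, -2.13, -2.38 and -2.51, and for 5mC they were -0.58, -1.63, -1.28, -1.40 and -1.36. The first run of the stretch was the lowest on the IVT array and the highest for 5mC, where its 4 probes had -1.47, -1.99, 0.50 and 0.31. A single probe of the third run stood at 0.90 for 5mC, beside -1.44 on the 5hmC ESC array and -1.40 on the IVT array.

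**Figure D4:**
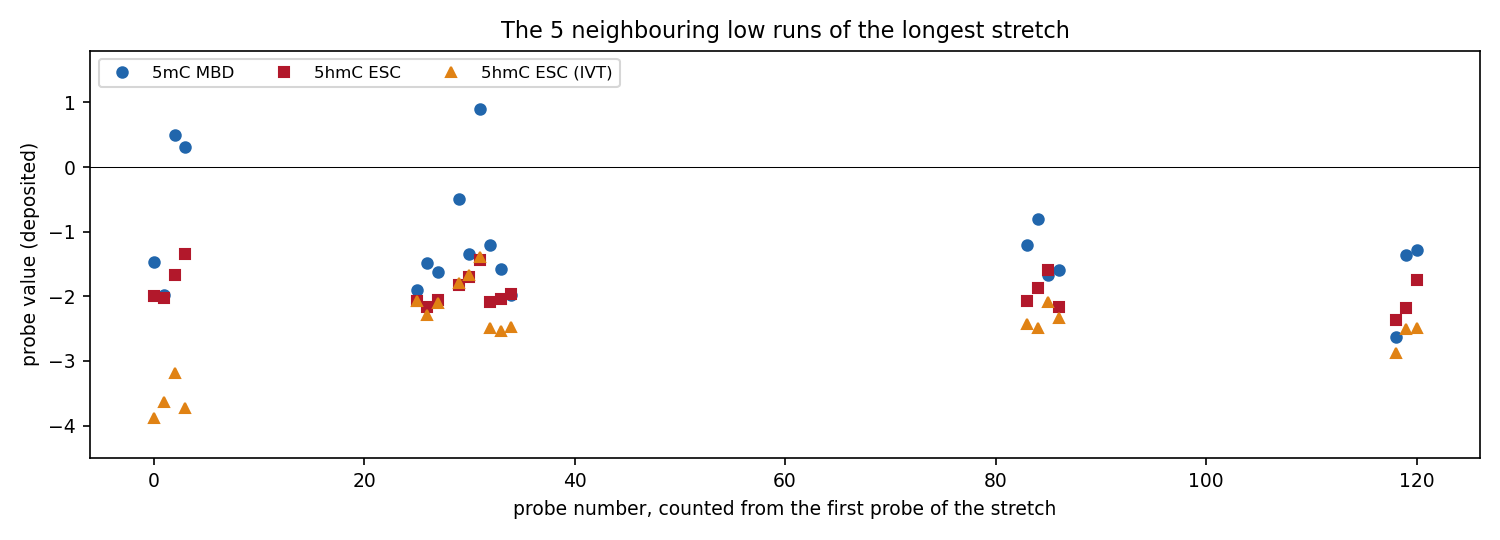
Probe values (y axis, deposited) in the longest stretch of neighbouring low runs against the probe number counted from its first probe (x axis), with 1 point per probe and array. The 20 probes form 5 runs. All 5hmC ESC and IVT values lie at or below -1.347, while 3 of the 5mC values lie above 0.

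Where the low runs lay relative to other probes was not used by the rule. They tended to be cut off from other probes. No other probe lay within 10 numbers of either end in 844 low runs, or 60.03%, against 33.9% of the other runs. Seen from the probe numbers, 6.84% (6.24 to 7.50) of the 6195 runs with another probe 2 numbers away were low. The share was 4.47% (3.57 to 5.59) with the nearest probe 3 to 5 numbers away, 23.2% (18.6 to 28.4) at 6 to 10 numbers and 27.8% (23.5 to 32.6) at 11 to 20 numbers. It was 22.4% (19.7 to 25.4) at 21 to 50 numbers, 15.7% (14.1 to 17.4) at 51 to 200 and 16.1% (14.4 to 17.9) beyond 200. Each array taken singly was also more often low in isolated runs. Between distances of 11 and 50 numbers 34.4% of runs were below percentile 20 on the 5mC MBD array, 38.2% on the 5hmC ESC array and 33.7% on the IVT array, while within 10 numbers these shares were 15.8%, 14.1% and 15.02%. The 285 runs at 6 to 10 numbers were unlike the rest of those within 10, with 32.6%, 38.2% and 36.5% in the same order, so the split at 10 numbers does not mark the change. What an unused probe number stands for is not given in the sources used here, and base composition or probe design as a part of this relation was not tested.

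The relation to isolation depended on the size of the run. Of the runs of 3 probes 24.5% were low when the nearest probe was over 10 numbers away and 6.49% when it was closer. For 4 probes the shares were 22.5% and 6.96%, for 5 probes 15.4% and 7.40%, and for 6 probes 12.2% and 6.70%, the isolated runs first. For 7 probes the order was the opposite, with 39 of 522 isolated runs, or 7.47%, and 42 of 438 others, or 9.59%. These counts are small, and no intervals were computed for the shares by size and isolation. By size alone the share of low runs was 10.4% (9.52 to 11.3) at 3 probes, 12.98% (11.9 to 14.1) at 4, 11.05% (9.85 to 12.4) at 5, 9.57% (8.17 to 11.2) at 6 and 8.44% (6.84 to 10.4) at 7, against 11% overall. The intervals of neighbouring sizes overlap except between 3 and 4 probes.

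**Figure D5:**
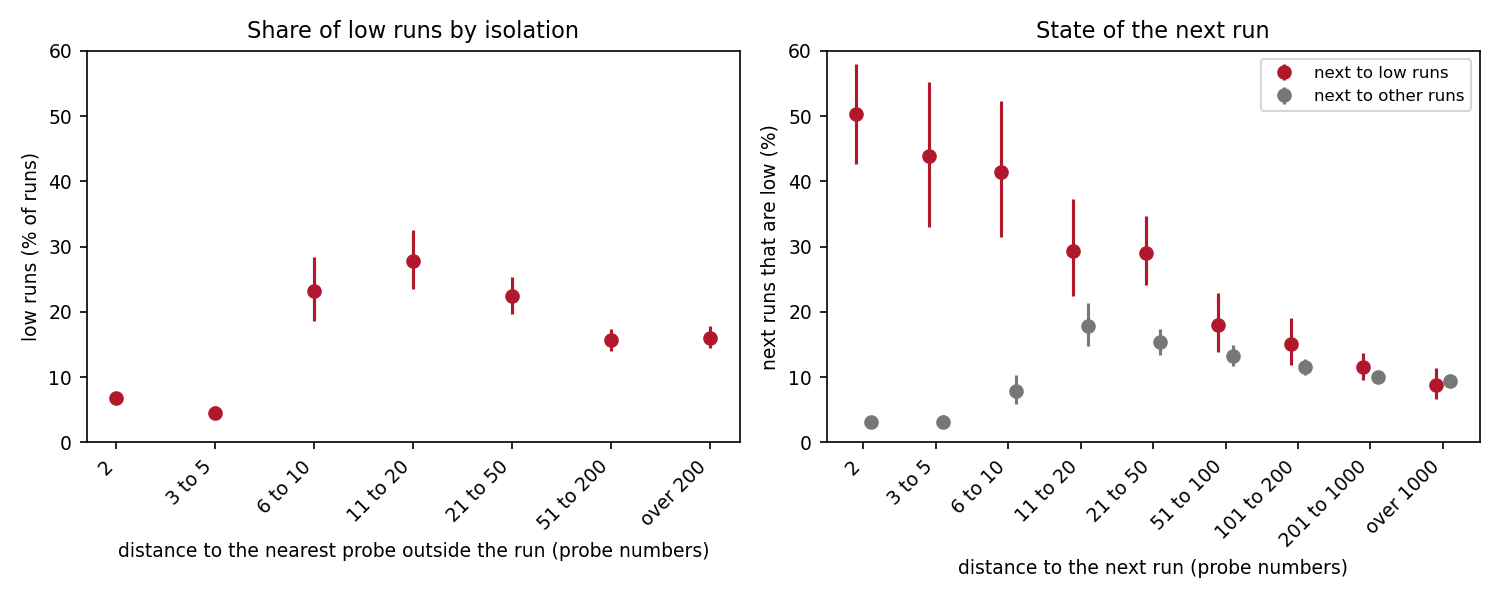
Left, the share of runs that were low (y axis, percent) by distance to the nearest probe outside the run (x axis, probe numbers), with 95% Wilson intervals. Right, the share of next runs that were low by distance to that run, next to low runs (red) and next to other runs (grey). The left panel peaks at 27.8% at 11 to 20 numbers, and the right panel shows 50.3% next to low runs and 3.08% next to other runs at a distance of 2.

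Along the order of probe numbers the low runs occurred throughout. In blocks of 1000 probes they made up a median of 10.7% of the runs, with an SD over blocks of 3.97 percentage points. Block 63 was the richest, with 34 low runs of 135, or 25.2%. There 34.8% of runs were below percentile 20 on the 5mC MBD array, 34.8% on the 5hmC ESC array and 34.1% on the IVT array. The last 3 blocks were poor in low runs, with 19 of 387, or 4.91%, against 11.2% in the first 86 blocks. In these last blocks 31.8% of runs were below percentile 20 on the IVT array, but only 11.1% on the 5mC MBD array and 14.0% on the 5hmC ESC array. The first 86 blocks had 19.6%, 20.3% and 20.2% in the same order of arrays.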

How the data were processed

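The authors deposited 1 table of 88736 probes with a column for each of the 3 arrays. Per the file's own contents these deposited values carry both signs, as log ratios do, and are handled as a score of unnamed log base. The log base, the centring, the normalization, the software and the genome build are, for these values, not given in the sources used here. Per the labels, Cy5 marked the enriched DNA and Cy3 the genomic DNA. Of the probes, 88734 had all 3 values and were used. Precision rests on how many arrays there are.

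Runs, medians, percentiles (average ranks for ties), left-out probes, end minus inner differences, distances in probe numbers and blocks of 1000 probes were computed in Python 3.11.15 with pandas 2.3.3, numpy 2.4.6 and scipy 1.17.1. Intervals of medians come from binomial order statistics. The code was tested on simulated data. The members, measures and alternatives were chosen with earlier results of these data known. Named are the 2 deepest runs and the start of the longest stretch, and the 2 runs nearest to the threshold on either side appear without a name. Alternatives were thresholds of 10 and 30, the mean of a run, all runs of at least 3 probes, bridging of 1 missing number and quantile normalization. The gene lists were not used, since the table carries no gene names. The measures by isolation, the flanking probes and their restriction to runs of 1, 2 or at least 8 probes, the depth on the IVT array and the 4 groups by it were added after seeing the data.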

Additional observations from a re-analysis of the deposited data

How the results depend on the processing

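The low runs changed in number and level with the threshold, as a stricter or looser one must. With percentile 10 there were 512, with medians of -1.23, -1.84 and -3.22 (5mC MBD, 5hmC ESC and IVT array, as in all lists here). The shares low on a held-out array were 60.8%, 84.3% and 65.1%, against 10% by construction. Left-out probes were still judged by the lowest 20% of probes, whatever the threshold for runs. Of them 65.7%, 92.0% and 97.0% were low, against 20% of all left-out probes. The within-run SD on the 5hmC ESC array was 0.227, 9.47% of next runs and 2.40% of runs of 7 probes were low, and the richest block held 16. With percentile 30 there were 2181, with medians of -0.85, -1.58 and -2.04, and 82.5% low on the held-out 5mC MBD array, against 30% by construction, and 17.04% of all runs were low by this threshold. Left-out probes were in the lowest 20% in 54.5%, 74.7% and 66.7%, again against 20% of all left-out probes. The within-run SD was 0.278 on the 5hmC ESC and 0.406 on the IVT array, and 25.5% of next runs and 13.2% of runs of 7 probes were low. With run means the medians for 5mC and 5hmC ESC were -0.87 and -1.65. With all runs of at least 3 probes, 78.03% of left-out probes were low on the IVT array. With 1 missing number bridged, 77.3% of runs were low on the held-out IVT array, left-out probes were low in 58.9% for 5mC and 83.8% on the 5hmC ESC array, 15.7% of next runs and 5.48% of runs of 7 probes were low, and the end minus inner difference on the 5hmC ESC array was -0.0017, against 0.014 in the main setting. That difference thus has no settled sign. The share of low runs over all bridged runs was not computed. After quantile normalization, which puts the arrays on 1 scale, the medians were -1.502, -1.87 and -1.85, the within-run SDs 0.90, 0.48 and 0.24 and the end minus inner difference on the IVT array 0.12. That difference was 0.14 for runs of 5 to 7 probes. Next runs within 10 numbers were low in 46.5%, against 18.7% at any distance. With the sign of all arrays turned, 614 runs met the rule. The first and last probes of low runs correlated at r between 0.538 and 0.743 on the IVT array over all settings, between -0.150 and -0.058 for 5mC and between -0.054 and 0.145 on the 5hmC ESC array, a check added after seeing the data. Of 167 alternative values 103 were counted as the same. Counts had to lie within 1.5 times of the main count and other values inside the main value's own interval. Medians had to keep the sign of the main value as well. The cause of the shifts not fixed by construction was not tested. No paired analysis was possible because no group has more than a single array, and no replicate could be left out.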

Other observations

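Runs of other sizes met the same bounds on all 3 arrays less often than the 11% of runs of 3 to 7 probes. Of 7207 single probes 686 did, or 9.52% (8.86 to 10.2), and of 5369 pairs 428 did, or 7.97% (7.28 to 8.73). Of 1606 runs of 8 or more probes 120 did, or 7.47% (6.29 to 8.86), and the longest of these had 23 probes, which is also the longest run of all. The low runs of 8 or more probes had medians of -0.96 for 5mC, -1.65 on the 5hmC ESC array and -2.20 on the IVT array.

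The 5mC MBD array had a narrow peak of values at 0.27. Within 0.05 of it lay 207 of 5958 probes in low runs, or 3.47%, and 4692 of 49067 probes in other runs, or 9.56%. In the low runs these probes had medians of -1.48 on the 5hmC ESC array and -2.54 on the IVT array, against 0.17 and -0.35 in the other runs. They appear as bands in the plot of first against last probes. Low runs were chosen by low medians on all 3 arrays. Both contrasts with the other runs thus follow in part from the choice and are a description.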
